A study of Mus musculus with 18 samples.

Results

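The vacuolar H+-ATPase (V-ATPase) is the proton pump of endosomes and lysosomes, and 10 of its genes were followed in the mouse ileum through postnatal development. The members were chosen by name: Atp6v1a, Atp6v1b2, Atp6v1c1, Atp6v1d, Atp6v1e1, Atp6v1h, Atp6v0a2, Atp6v0d1, Atp6v0e and Atp6ap1. Each was read from the probe set with its symbol alone that had the highest mean over the arrays. All 10 passed the filter on dim probe sets, and they are 10 of 8630 genes tested and of 18193 genes with such a probe set. RNA came from full-thickness ileum of C57BL/6 mice, an inbred laboratory strain, on postnatal days 4, 7, 9, 11, 24 and 32. Each age had 3 arrays from individual mice, 18 in all, with no treatment or genetic change named. Values are the authors' log2 levels per probe set (RMA), and 1 unit is a doubling. Days 24 and 32 (6 arrays) are called after weaning and days 4 to 11 (12 arrays) before weaning, from general knowledge of mice.

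The pump is built from a cytosolic V1 sector, which hydrolyses ATP, and a membrane V0 sector, through which protons enter the lumen. Several subunits exist as isoforms from separate genes, and the a isoforms are known to steer the pump to different membranes. Before weaning, ileal enterocytes take up milk macromolecules by endocytosis and digest them in large acidic lysosomes, whose hydrolases need the low pH that the pump maintains. Many V-ATPase and lysosomal genes are known targets of the MiT/TFE transcription factors (TFEB and its relatives), which bind an E-box with the core CACGTG.

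Promoter sequences are shown first, and their part in the changes across weaning described further on was not tested. RefSeq promoter windows (build GRCm38.p6, 250 bases before to 50 after a start site) were at hand for 6 of the 10 members: Atp6v0d1, Atp6v0e, Atp6v1a, Atp6v1d, Atp6v1e1 and Atp6ap1. They were searched for CACGTG and for the longer palindrome of the CLEAR element, both of which read the same on either strand. CACGTG was present in 3 of the 6 windows, those of Atp6v0d1, Atp6v0e and Atp6v1a, and in 7.15% of all 32851 windows in the table. The longer palindrome was present in 0 of the 6 and in 0.326% of all windows. Among 13 other V-ATPase genes with a window, Atp6v0b alone held CACGTG. In all 3 member windows the core lay within TCACGTGA, a motif chosen after the sequences were seen, which 0.974% of all windows held. The 3 stretches with a match are printed with that of Atp6v0e2, picked as an isoform gene that moved the opposite way. The window of Atp6v0e2 held no match. Windows of genes that fell also held none, among them those of the members Atp6v1d, Atp6v1e1 and Atp6ap1 and of Tcirg1 and Atp6v0a1. Each runs 5′ to 3′ from 150 bases before to 20 bases after the start site, with CACGTG in capitals, at chr8:105566045-105566214, minus strand (Atp6v0d1), chr17:26676246-26676415, plus strand (Atp6v0e), chr16:44139240-44139409, minus strand (Atp6v1a) and chr6:48537419-48537588, plus strand (Atp6v0e2).
Atp6v0d1: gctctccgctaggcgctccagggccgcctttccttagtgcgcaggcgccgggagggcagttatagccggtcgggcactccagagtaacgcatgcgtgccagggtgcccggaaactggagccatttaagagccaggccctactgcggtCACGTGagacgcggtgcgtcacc
Atp6v0e: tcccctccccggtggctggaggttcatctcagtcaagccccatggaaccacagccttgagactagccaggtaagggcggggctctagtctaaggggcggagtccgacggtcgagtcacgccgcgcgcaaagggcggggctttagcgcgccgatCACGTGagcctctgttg
Atp6v1a: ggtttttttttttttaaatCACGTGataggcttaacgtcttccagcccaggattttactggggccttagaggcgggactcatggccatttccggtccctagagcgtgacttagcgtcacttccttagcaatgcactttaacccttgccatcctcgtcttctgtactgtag
Atp6v0e2: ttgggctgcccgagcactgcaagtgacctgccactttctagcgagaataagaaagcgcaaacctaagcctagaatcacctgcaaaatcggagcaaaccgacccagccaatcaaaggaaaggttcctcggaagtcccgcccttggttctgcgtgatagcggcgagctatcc
The match began 3 bases before the start site in Atp6v0d1, 131 bases before the start site of the window in Atp6v1a and just inside the transcript in Atp6v0e. The gene record of Atp6v1a reaches further upstream, to chr16:44139702, so that its window and match lie inside the gene. The windows of Atp6v1d and Atp6v0a1 also lie inside their genes, whose records reach upstream to chr12:78862008 and chr11:101009422. The lack of a match in these windows does not cover the sequence further upstream. A match describes these letters and is not a measured binding site.

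The arrays are described here only as far as they touch the V-ATPase values. Array medians ran from 3.88 to 3.97, and a level near them could not be told from background. Hybridization spike controls, added RNAs that report the hybridization step, put 10 arrays in a higher group and 8 in a lower one. The higher group held all 6 arrays after weaning and 4 before it (day 4 replicates 1 and 2, day 7 replicate 3 and day 11 replicate 1). Control probe sets for 18S ribosomal RNA read 7.01 to 10.85 after weaning and 4.93 to 8.19 before it. Poly-A control probe sets read 4.98 to 6.37 after weaning and 3.53 to 4.51 before it. Xist and the Y-linked Eif2s3y showed the male pattern on 5 of 6 arrays after weaning and 3 of 12 before it. The titles of day 7 replicate 3 and day 9 replicate 2 carry the same animal number, yet Xist read 4.69 and 9.74 on them. The part of these differences in the results was not tested beyond the alternatives given.

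After weaning, 9 of the 10 members fell and 1, Atp6v0a2, rose. Over all genes tested 72.9% were called, 41.8% lower and 31.1% higher, in this comparison of days 24 and 32 with days 4 to 11 (limma, Benjamini-Hochberg adjusted p below 0.05). The median log2 difference of the members was -1.0002, against -0.07 for all genes tested. In 8 members every array after weaning lay below every array before it, a pattern found in 21.7% of all genes. Atp6v0a2 lay wholly above, as 15.5% of all genes did, and Atp6v1a overlapped. A fall of at least 2-fold was seen in 5 members (Atp6v1b2, Atp6v1h, Atp6v1d, Atp6v0d1 and Atp6v1c1) and in 11.6% of all genes. In whole tissue, fewer cells of a type and less RNA per cell cannot be told apart.

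**Figure D1:**
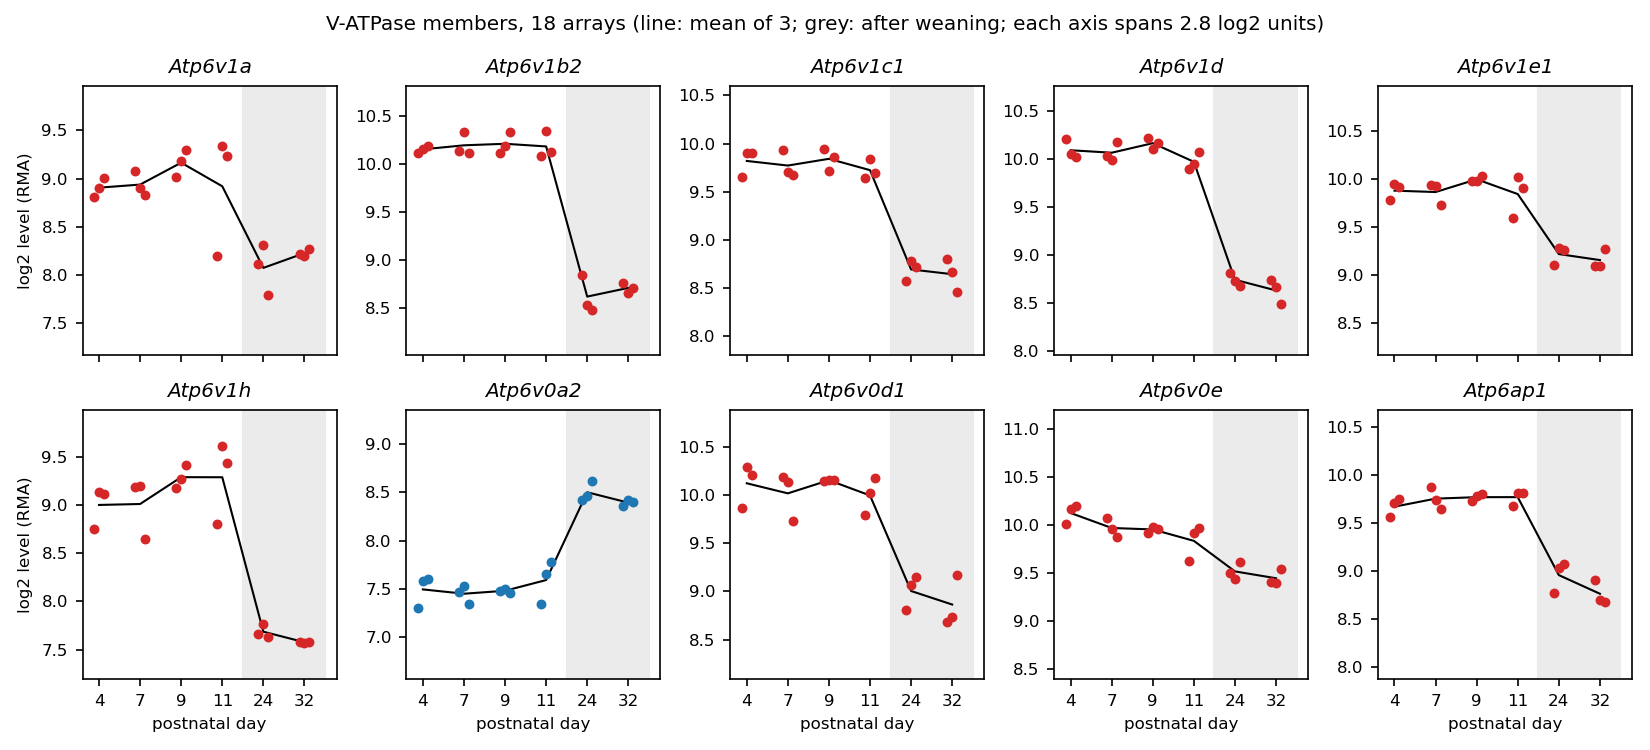
Log2 level (RMA, vertical axes of equal span) of each of the 10 members against postnatal day, with 1 point per array and a line through the means of 3. The mean of Atp6v0a2 (blue) rose between day 11 and day 24 and those of the other members (red) fell, Atp6v0e by the least.

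The A and B subunits form the ring of V1 in which ATP is bound and split. Atp6v1b2, the B2 isoform, had log2 levels of 8.48 (lowest), 8.69 (median) and 8.85 (highest) after weaning, against 10.08, 10.15 and 10.34 before it. The gap between the stages, 1.24, was the widest among the members, and the level was 2.86-fold lower after weaning (log2 difference -1.52 ± 0.07, SE, n = 6 against 12; limma adjusted p = 6.37e-13). The other probe set of Atp6v1b2 that passed the filter fell more, by 3.33-fold (-1.74). Averaging the 4 probe sets of Atp6v1b2, 2 of which stayed dim, gave a stage difference of -0.83. Atp6v1a, the catalytic A subunit, had levels of 7.79, 8.20 and 8.31 after weaning, against 8.19, 9.01 and 9.34 before it. Here 1 array before weaning, day 11 replicate 1 at 8.19, fell within the range of the later arrays. Atp6v1a was 1.78-fold lower after weaning (-0.83 ± 0.13, limma adjusted p = 1.50e-05). With the hybridization spike group as a block its difference was -0.52, and within the higher group alone -0.48. The other probe set of Atp6v1a read lower by 1.34 log2 units after weaning (a difference of -1.34), with means of 7.63 and 8.97 after and before weaning.

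Subunits D and F form the central stalk that turns inside the ring. Atp6v1d, the D subunit, had log2 levels of 8.49, 8.71 and 8.82 (lowest, median and highest) after weaning, against 9.89, 10.06 and 10.22 before it. The stages were separated by 1.08 log2 units, and Atp6v1d was 2.61-fold lower after weaning (-1.38 ± 0.06, SE; limma adjusted p = 4.04e-13). Atp6v1f, the F subunit and not among the 10 members, moved the same way (-1.16 ± 0.06).

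Subunits C, E, G and H make up or brace the outer stalks that hold the ring still, and C and H are known to control the joining of V1 to V0. Atp6v1h, the H subunit, had log2 levels of 7.57, 7.61 and 7.77 after weaning, against 8.65, 9.18 and 9.62 before it. The 6 later arrays lay close together and the 12 earlier ones were more spread (SD 0.07 and 0.29), without overlap. Atp6v1h fell 2.87-fold (log2 difference -1.52 ± 0.11, SE; limma adjusted p = 5.79e-10). Atp6v1c1, the C1 isoform, had levels of 8.45, 8.69 and 8.80 after weaning, against 9.64, 9.78 and 9.94 before it. It was 2.18-fold lower (-1.12 ± 0.07, limma adjusted p = 1.14e-10), with no overlap of the arrays. The other probe sets of Atp6v1c1 fell less, by 1.77-fold (-0.82) and 1.86-fold (-0.89). Atp6v1e1, the E1 isoform, had levels of 9.10, 9.18 and 9.28 after weaning, against 9.60, 9.93 and 10.03 before it. Its fall was the smallest of the 6 V1 members, at 1.63-fold (-0.71 ± 0.07, limma adjusted p = 3.75e-08). Averaging all 4 probe sets of Atp6v1e1, 3 of which did not pass the filter, gave -0.33. Atp6v1g1, the G1 isoform outside the 10, was 2.12-fold lower (-1.08 ± 0.06).

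In the V0 sector the a subunit carries the path for protons, d couples the stalk to the proteolipid ring, and e is a small membrane protein of less settled function. Atp6v0a2, the a2 isoform known from Golgi and endosomal membranes, had log2 levels of 8.35, 8.42 and 8.62 after weaning, against 7.30, 7.49 and 7.78 before it. It was 1.93-fold higher after weaning (0.95 ± 0.07, SE; limma adjusted p = 1.02e-09). The other 2 probe sets of Atp6v0a2 moved the same way, by 1.18 and 1.19. Atp6v0d1, the d1 isoform, had levels of 8.68, 8.93 and 9.17 after weaning, against 9.73, 10.15 and 10.29 before it. It fell 2.20-fold (-1.14 ± 0.10, limma adjusted p = 5.92e-09) without overlap. Atp6v0e had levels of 9.40, 9.47 and 9.62 after weaning, against 9.62, 9.96 and 10.20 before it. The stages met at day 24 replicate 3 (9.62) and day 11 replicate 1 (9.62), 0.0041 units apart, and the difference, 1.40-fold lower after weaning, was the smallest of the members (-0.49 ± 0.06, limma adjusted p = 2.14e-06).

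Atp6ap1, also called Ac45, is an accessory protein that takes part in assembling V0 and is encoded on the X chromosome. Its log2 levels were 8.68, 8.84 and 9.07 after weaning, against 9.56, 9.74 and 9.88 before it. It was 1.84-fold lower after weaning (-0.88 ± 0.07, SE; limma adjusted p = 9.58e-10), and -0.86 with the level of Xist as a covariate. Atp6ap2, the other accessory protein, was 1.40-fold lower (-0.49 ± 0.06), with levels of 10.65 to 10.92 after weaning and 11.15 to 11.39 before it. The other probe sets of Atp6ap2 read -0.49 and -0.13.

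**Figure D2:**
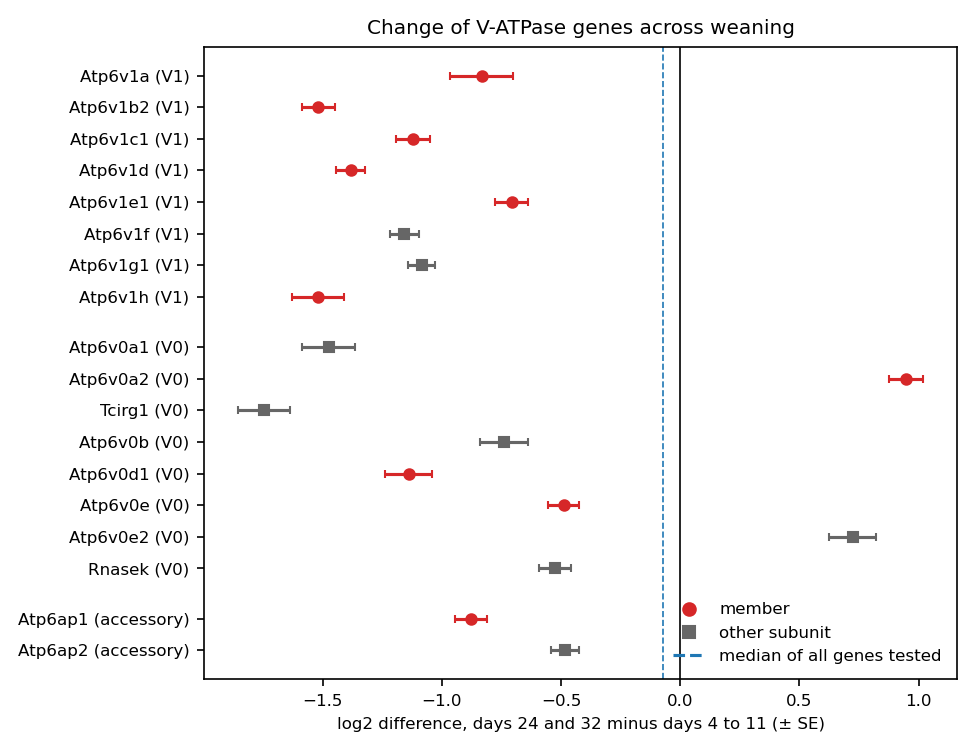
Log2 difference (days 24 and 32 minus days 4 to 11, ± SE) of the 18 V-ATPase genes tested, by sector, with the 10 members as red circles and other subunits as grey squares. The dashed line is the median of all genes tested (-0.07), and 16 genes lie to its left, while Atp6v0a2 and Atp6v0e2 lie to the right of 0.

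Between day 11 and day 24, a span that holds weaning, the same direction was called for every member in the fit over all arrays. No age between them was measured, so an abrupt change cannot be told from a gradual one, nor an effect of weaning from age. On day 24, 9 members were lower and 1 was higher than on day 11, against 59.2% called over all genes tested, 32.3% lower and 26.9% higher. Atp6v1h was 3.04-fold lower on day 24 than on day 11 (log2 difference -1.61 ± 0.18, SE, n = 3 each; limma adjusted p = 5.52e-07), Atp6v1b2 2.95-fold (-1.56 ± 0.11) and Atp6v1d 2.34-fold (-1.23 ± 0.10). Atp6v0a2 was 1.88-fold higher on day 24 (0.91 ± 0.12, limma adjusted p = 2.77e-06). Atp6v1a had a difference of -0.85 ± 0.21 (limma adjusted p = 0.00229), which was -0.54 with the spike group as a block, and averaged probe sets of Atp6v1b2 gave -0.90. For Atp6v0e the difference was -0.32 ± 0.11 (limma adjusted p = 0.0158). That call ended with the spike group as a block (-0.19, adjusted p = 0.134), with the 6 arrays of both ages alone (adjusted p = 0.094), and without day 11 replicate 2 (adjusted p = 0.0583), day 11 replicate 3 (0.0793) or day 24 replicate 2 (0.0594). The call for Atp6v1e1 (-0.62 ± 0.11) ended when its probe sets were averaged (-0.12, limma adjusted p = 0.286).

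From day 4 to day 11 and from day 24 to day 32 the members showed no called change. On day 32, 0 of 10 members differed from day 24 by limma at an adjusted p below 0.05, and 0 at an unadjusted p below 0.05, against 12.3% of all genes called, 6.22% lower and 6.11% higher. The log2 differences of day 32 minus day 24 ran from -0.19 (Atp6ap1) to 0.15 (Atp6v1a), with standard errors of 0.10 to 0.21. On day 11, 0 of 10 differed from day 4 and 1 had an unadjusted p below 0.05, against 2.89% of all genes called, 1.54% lower and 1.34% higher. These differences ran from -0.29 (Atp6v0e) to 0.29 (Atp6v1h), with the same range of standard errors. Atp6v0e, with means of 10.12 ± 0.10 on day 4, 9.97 ± 0.10 on day 7, 9.95 ± 0.03 on day 9 and 9.83 ± 0.19 on day 11 (SD, 3 arrays per age), was the member with the lowest adjusted p (limma, 0.147). With the spike group as a block its day 11 minus day 4 difference was -0.35 (limma adjusted p = 0.042). Over the 6 ages together all 10 members differed (limma F test, adjusted p at most 0.000653), as did 68.3% of all genes.

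The fixed list of other V-ATPase subunits and isoforms held 17 genes, of which 14 had a probe set of their own and 8 passed the filter. The levels of Atp6v0c, Atp6v1g3 and Atp6ap1l were not analysed here. After weaning 7 of these 8 fell and 1 rose, against 41.8% lower and 31.1% higher over all genes tested. The proteolipid subunit Atp6v0b was 1.67-fold lower (log2 difference -0.74 ± 0.10, SE), while its 2 other probe sets read -1.46 and -0.51. Rnasek, a small subunit of V0, was 1.44-fold lower (-0.53 ± 0.07) and the only one of the 8 called on day 32 against day 24 (-0.35 ± 0.11, limma adjusted p = 0.0454). The remaining 6 isoform genes stayed dim on all arrays. Mean levels were 2.73 after and 2.79 before weaning for Atp6v0a4, 2.95 and 2.82 for Atp6v0d2, 2.67 and 2.63 for Atp6v1b1, and 3.38 and 2.99 for Atp6v1c2. They were 3.36 and 3.17 for Atp6v1e2, and 3.86 and 4.01 for Atp6v1g2. In other tissues several of these mark specialised pumps, such as Atp6v1b1 and Atp6v0a4 in acid-secreting kidney cells and Atp6v0d2 in osteoclasts. They gave no level that could be told from background.

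Isoforms of 1 subunit could be contrasted where both passed the filter, which left 3 pairs with a member. Within each array the log2 value of 1 isoform was subtracted from that of the other, and the stages were compared by a two-sided exact permutation test over the 18 arrays. Only the change of this difference between stages is meaningful, since levels of different probe sets cannot be ranked. Atp6v0a1, the a1 isoform best known from neurons, had levels of 6.60, 6.86 and 7.32 (lowest, median and highest) after weaning, against 8.11, 8.43 and 8.57 before it. It was 2.78-fold lower after weaning (-1.48 ± 0.11, SE; limma adjusted p = 1.04e-09). Tcirg1, which encodes the a3 isoform of lysosomes and osteoclasts, had levels of 5.63, 6.22 and 6.37 after weaning, against 7.39, 7.93 and 8.10 before it. It had the largest fall of all V-ATPase genes tested, 3.35-fold (-1.75 ± 0.11, limma adjusted p = 6.09e-11).

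Atp6v0a2 minus Atp6v0a1 was 1.53 ± 0.27 after weaning (SD, n = 6) and -0.89 ± 0.19 before it (n = 12), a shift of 2.42 log2 units or 5.36-fold in the balance toward a2 (exact p = 5.39e-05). Atp6v0a2 minus Tcirg1 was 2.34 ± 0.27 after weaning and -0.35 ± 0.19 before it (SD), a shift of 2.69 or 6.46-fold (exact p = 5.39e-05). For the e subunit the balance moved away from the member: Atp6v0e minus Atp6v0e2 was 1.51 ± 0.28 after weaning and 2.72 ± 0.18 before it, a shift of -1.21 or 2.32-fold (exact p = 5.39e-05). Atp6v0e2 itself had levels of 7.64, 7.94 and 8.29 after weaning, against 6.72, 7.32 and 7.49 before it, and was 1.65-fold higher (0.72 ± 0.10, SE; limma adjusted p = 2.90e-06). The p-value is the smallest the 18564 arrangements can give and is the same after Benjamini-Hochberg adjustment over the 3 pairs. In each pair the isoform that rose lay wholly above its earlier arrays, and the isoform that fell lay wholly below them. The differences therefore could not overlap between the stages, and this p-value is no support beyond that separation. Within the higher spike group the shifts were 2.53, 2.64 and -1.32 (exact permutation, adjusted p = 0.00476 each, the smallest these 10 arrays allow and fixed in the same way). Averaging all probe sets of a gene reduced the shift between Atp6v0a2 and Atp6v0a1 to 1.56. Only 1 probe set of Atp6v0a1 passed the filter, so its fall rests on that probe set. The stage differences of its others were -0.61, 0.08 and 0.19.

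**Figure D3:**
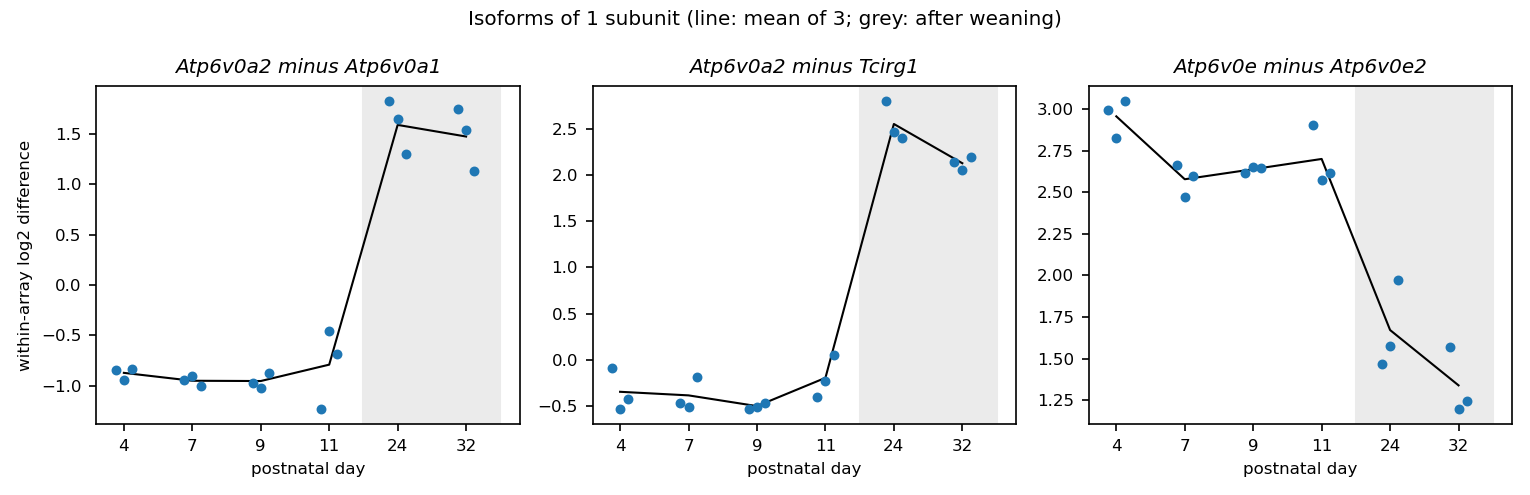
Within-array log2 difference between 2 isoforms of 1 subunit against postnatal day, 1 point per array and a line through the means of 3. Atp6v0a2 minus Atp6v0a1 and Atp6v0a2 minus Tcirg1 were higher on days 24 and 32 than on any array of days 4 to 11, and Atp6v0e minus Atp6v0e2 was lower.

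By age, Tcirg1 averaged 7.84 ± 0.39, 7.83 ± 0.27, 7.98 ± 0.05 and 7.78 ± 0.09 on days 4, 7, 9 and 11, then 5.95 ± 0.30 and 6.27 ± 0.09 at the last 2 ages (SD, 3 arrays per age). Atp6v0a2 averaged 7.49 ± 0.17, 7.45 ± 0.10, 7.48 ± 0.02 and 7.59 ± 0.23 on the first 4 ages, then 8.50 ± 0.10 and 8.39 ± 0.04. Atp6v0e2 averaged 7.17 ± 0.16, 7.39 ± 0.10, 7.31 ± 0.01 and 7.13 ± 0.36, then 7.84 ± 0.19 and 8.10 ± 0.24. In all 3 genes the arrays of days 24 and 32 lay outside the range of days 4 to 11. The change lay between day 11 and day 24, a span with no array. Of all genes tested, 21.7% lay wholly below, as Tcirg1 did, and 15.5% wholly above, as Atp6v0a2 and Atp6v0e2 did.

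Genes that assemble the pump or work beside it were described from lists fixed by name. Of 11 measured assembly factors, all tested, 8 fell and 1 rose after weaning (median log2 difference -0.64). The shares over all genes tested were 41.8% lower and 31.1% higher. Dmxl2 and Wdr7, subunits of the rabconnectin-3 complex that helps V1 rejoin V0, were 6.44-fold (-2.69 ± 0.09, SE) and 2.31-fold (-1.21 ± 0.06) lower. Tmem199 and Ccdc115, factors of V0 assembly in the endoplasmic reticulum, had differences of -0.64 ± 0.09 and -0.64 ± 0.06. Ncoa7 and Meak7, TLDc-domain proteins, had differences of -0.84 ± 0.12 and -0.78 ± 0.10. The assembly factor Vma21 was tested and not called (0.09 ± 0.17, limma adjusted p = 0.658). The rise was Aldoa, a glycolytic enzyme that can bind the pump (0.39 ± 0.09).

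Of 11 tested ion channels and exchangers of the same compartments, 9 fell and 2 rose, with a median log2 difference of -1.30. Over all genes tested 41.8% were lower and 31.1% higher. The falls of Clcn4 (-0.39) and Tpcn1 (-0.36) were the smallest, and the other gene that rose beside Mcoln2 was Clcn3 (0.43). The chloride-proton exchangers Clcn5, Clcn6 and Clcn7, which carry the counter-charge for acidification, were 3.12-fold, 4.50-fold and 2.46-fold lower. The calcium channel Mcoln3 was 183-fold lower, with levels of 2.46 to 2.83 after weaning and 9.91 to 10.45 before it. The later levels of Mcoln3 lay below the array medians, so that its fold depends on the background correction. Its relative Mcoln1 was 3.39-fold lower, whereas Mcoln2 was 2.67-fold higher. Slc11a2, a proton-coupled metal transporter, was 11.0-fold lower.

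Of 10 tested lysosomal membrane proteins 8 fell and 0 rose (median -0.53), with Laptm4b (2.66-fold), Lamp2 (2.51-fold) and Lamp1 (2.27-fold), major glycoproteins of the lysosomal membrane in the case of the Lamp genes, lower after weaning. Of 13 tested genes of lysosomal signalling and the MiT/TFE factors 10 fell and 0 rose (median -1.01). For both lists, the shares over all genes tested were 41.8% lower and 31.1% higher. Tfec, a member of the MiT/TFE family, had levels of 2.43 to 3.26 after weaning and 9.01 to 9.53 before it, an 86.3-fold difference against a level below the array medians. Tfeb was 2.01-fold lower (-1.01 ± 0.07, SE; limma adjusted p = 1.43e-10), and Tfe3 had a difference of -0.02 ± 0.08 (adjusted p = 0.842). Rragd, a Rag GTPase that signals amino acids at the lysosome, was 7.50-fold lower, and Flcn, which acts on that GTPase, 4.26-fold lower. Rragd was also the member of this list with the largest further fall on day 32 against day 24 (-1.41 ± 0.20, limma adjusted p = 0.000178).

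**Figure D4:**
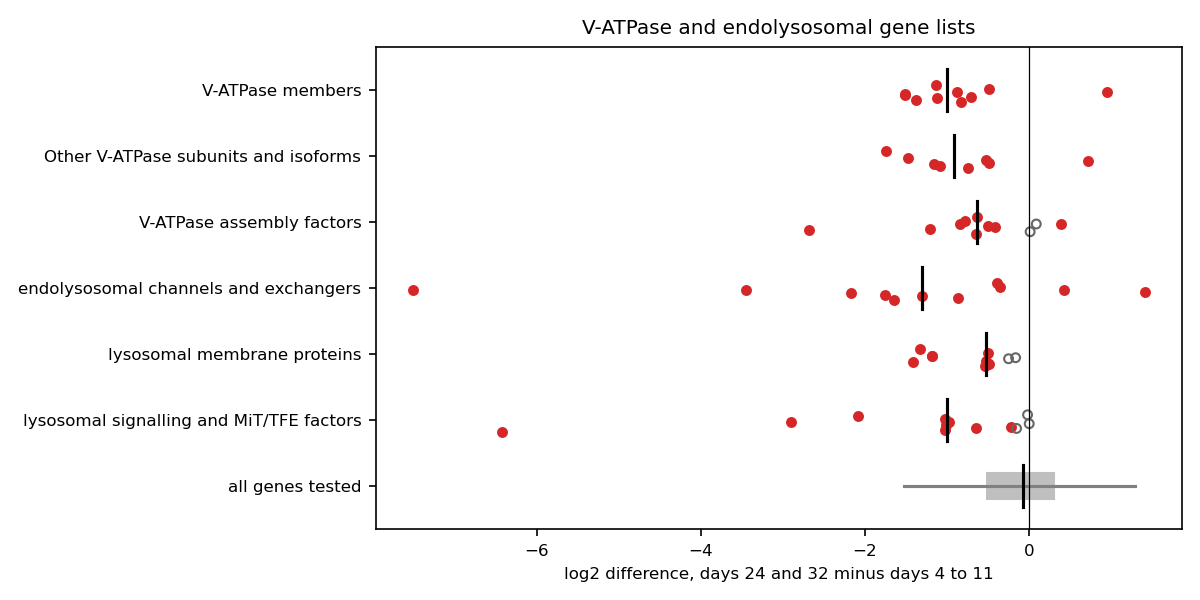
Log2 difference (days 24 and 32 minus days 4 to 11) of each tested gene in 6 lists, filled where called and open where not, with a bar at each list's median. The bottom row gives all 8630 genes tested as the 5th to 95th percentile (-1.52 to 1.30), the quartiles (-0.51 to 0.31) and the median (-0.07).

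Markers of the cell types in the pieces moved as well, as did 72.9% of all genes tested (41.8% lower and 31.1% higher). The mean log2 level of 11 epithelial and ileal markers was 10.84 to 11.14 after weaning and 8.89 to 9.29 before it, with 8 genes higher and 3 lower. List means here cover all measured genes. Among the higher genes, Fabp6 averaged 13.07 after and 7.03 before weaning, Slc10a2 7.49 and 2.15, Krt20 11.97 and 7.61, and Slc51b 10.81 and 7.80. These genes weigh heavily in the list mean, which is not a measure of epithelial content. Of the general epithelial genes, Vil1 (villin of the brush border) had a log2 difference of 0.97, the keratin Krt8 0.70 and the adhesion protein Cdh1 0.37, all higher after weaning. The keratin Krt18 (-0.80), the surface protein Epcam (-0.22) and the transcription factor Cdx2 (-0.30) were lower. In the list of endocytosis and digestion in suckling enterocytes 6 of 7 tested genes fell and 1, Plb1, rose. Plb1 averaged 9.94 on day 24 and 4.96 on day 32, against 3.69 before weaning. The list means were 6.34 to 8.21 after and 9.53 to 9.80 before weaning. Of 7 smooth muscle genes 2 rose and 1 fell (list means 10.01 to 10.50 after and 9.97 to 10.41 before). In the neuron and glia list all 4 tested genes, the neuronal Uchl1, Prph, Ret and Nos1, fell (list means 4.68 to 5.06 after and 5.55 to 5.90 before). The glial gene S100b did not pass the filter and averaged 4.07 after and 3.95 before weaning. Of 6 tested macrophage genes 2 fell, Csf1r (7.45-fold) and Cd68 (2.36-fold), and 0 rose (6.42 to 6.69 after and 6.90 to 7.31 before). All 3 measured adipocyte genes rose (7.81 to 9.67 after and 3.57 to 6.85 before). Among markers of osteoclasts and acid-secreting cells 5 of 6 did not pass the filter, and Calcr, Foxi1, Slc4a1 and Slc26a4 averaged 2.29 to 3.92 in both stages, below 3.97, while Ctsk averaged 5.01 after and 5.64 before weaning. Acp5, the marker tested, was 1.20-fold higher after weaning. The part of these cell types in the V-ATPase values was not tested.

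The genes most like 2 of the members in pattern were found by the root mean square difference over the 6 age means, each gene centred on its own mean. For Atp6v1h, the member with the largest fall, they were Pogk (0.08 log2 units), Wdr81 (0.09), a protein of endosomes and autophagy, and Hoxc8 (0.09), a homeobox transcription factor, against a median of 0.71 over all genes. For Atp6v0a2 they were Dipk1a (0.05), Zbtb7b (0.05), a zinc finger transcription factor, and Efnb1 (0.06), an ephrin ligand, against a median of 0.52.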

How the data were processed

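RNA from 18 mouse ileum pieces was measured on Affymetrix GeneChips. The values deposited by the authors are log2 levels of each probe set. The submitters' processing notes name RMA, with no version or options. The table holds 45101 probe sets. Platform annotation gave 1 symbol to 34945 gene probe sets and several to 932, while 9211 were not listed; Entrez identifiers matched 34741 to RefSeq (GRCm38.p6) and 0 symbols changed.

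A gene was read from its single-symbol probe set with the highest mean among those at log2 6 or more on at least 3 arrays. limma 3.58.1 in R 4.3.3 (lmFit, eBayes) was fitted to all 8630 genes with age as a factor (12 residual degrees of freedom), and p-values were adjusted by Benjamini-Hochberg across that whole set. The code was tested on simulated data. Stages are means of days 24 and 32 and of days 4 to 11. Precision is limited by 3 arrays per age, with no sequencing depth to give.

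Members, lists and tests were chosen with earlier results of these data known. All members and all other V-ATPase genes are named. For the other lists the rule was up to 6 called genes by size of change, but it was not followed throughout. Some lists name fewer or none, and some larger changes, such as that of Slc36a1, were left out. Genes named outside this rule, and Xist and Eif2s3y, were chosen after their values were seen. Alternatives were no filter, a filter at log2 8, averaged probe sets, cyclic loess, quantile and median scaling, eBayes trend and robust options, array weights, only the ages compared, the spike group as a block, Xist as a covariate and each array left out; the higher spike group alone was added for the fits after seeing the data. Genes without a single-symbol probe set were not analysed here.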

Additional observations from a re-analysis of the deposited data

How the results depend on the processing

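In days 24 and 32 minus days 4 to 11 all 10 members were called in the same directions under the 13 other settings. Of these settings, the ages compared alone repeated the main fit in this comparison, so that its agreement was fixed. The calls and directions also held without each array in turn. The 3 isoform shifts kept their direction and stayed below 0.05 wherever tested. With arrays left out, this followed from the separation of each gene. The shift of Atp6v0a2 minus Tcirg1 was 2.32 for day 32 minus day 11, and that of Atp6v0e minus Atp6v0e2 was -1.03 for day 24 minus day 11. Among members, 1 (Atp6v0e) was called for day 11 minus day 4 with the spike group as a block and 0 otherwise. Differences that were not called changed sign. For day 11 minus day 4 these were Atp6v1a (0.01; -0.0165 with averaged probe sets, -0.0134 with median centring, -0.14 with the spike group as a block), Atp6v1b2 (0.03; -0.0314 with averaged probe sets, -4e-04 with array weights, -0.0056 with the block) and Atp6v1e1 (-0.04; 0.0079 with cyclic loess). For day 32 minus day 24 they were Atp6v0a2 (-0.11) and Atp6v1c1 (-0.05), at 0.11 and 0.0281 with averaged probe sets. Leaving out single arrays gave -0.19 to 0.38 for Atp6v1a, -0.0476 to 0.0804 for Atp6v1b2 and -0.12 to 0.0863 for Atp6v1e1 (day 11 minus day 4), and -0.13 to 0.0445 for Atp6v1c1 (day 32 minus day 24). The cause was not tested. Counts over all genes moved with the filter, since fewer or more genes were tested (6292 between the stages, 10247 unfiltered, 2865 at log2 8, where the other comparisons gave 2729 for the F test, 2399, 577 and 121). The 249 calls of day 11 minus day 4 became 944 with array weights, 484 with the block, 52 with those ages alone, and 85, 92, 99 and 133 without day 4 replicate 3, day 4 replicate 2, day 11 replicate 1 and day 11 replicate 2. The 1064 calls of day 32 minus day 24 became 443 with those ages alone, and 571, 643 and 686 without day 32 replicate 2, day 24 replicate 3 and day 32 replicate 1. Quantile and cyclic loess normalization changed the median stage difference of all genes from -0.07 to -0.02 and -0.0037. No paired analysis was possible because the labels give individual mice at each age, and the 1 animal number that appears at more than 1 age (day 7 replicate 3 and day 9 replicate 2) stands on arrays with Xist at 4.69 and 9.74.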
